A study of Mus musculus with 14 samples.

Results

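The respiratory chain and ATP synthase are the protein complexes of the inner mitochondrial membrane that turn the oxidation of fuel into ATP, and their nuclear-encoded subunit genes are described here in epididymal fat, the visceral depot beside the epididymis of male mice. Members were the genes named by a single symbol on the array whose symbol begins with Nduf followed by a, b, c, s or v and a digit (complex I), is Sdha, Sdhb, Sdhc or Sdhd (complex II), or begins with Uqcr (complex III), Cox4 to Cox8 (complex IV) or Atp5 (complex V, ATP synthase). The rule gave 81 of the 19937 genes measured: 35 of complex I, 4 of complex II, 8 of complex III, 17 of complex IV and 17 of complex V. It uses names alone and no measured level. Ndufa4 is counted with complex I by its symbol, although newer work places its protein in complex IV. Rows that the array annotation assigns to several symbols, among them those naming Cox7c, Ndufb4 and Ndufs5 with a related copy, were left out, and the subunits encoded in mitochondrial DNA were not analysed here.

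The RNA was measured on 14 Affymetrix arrays, 1 per sample, and the labels call the replicates of each group biological. All mice were male and of the strain C57BL6/J, were 8 weeks old when the diets began, and stayed on them for 24 weeks. The wild type on normal diet (WT_ND) had 3 arrays and the wild type on a Western diet of 42% milk fat (WT_HFD) had 3. The genotype that the labels name EKO and tie to apolipoprotein E had 4 arrays on normal diet (EKO_ND) and 4 on the Western diet (EKO_HFD). No further allele or agent is named. The design compares the diets within each genotype and the genotypes within each diet, and it allows a test of whether the diet effects of the genotypes differ.

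Apoe itself, the apolipoprotein that EKO refers to, read 13.13 to 13.65 on the log2 scale in the 6 WT arrays and 9.46 to 10.26 in the 8 EKO arrays. Arrays of a group correlated at 0.976 to 0.995, and the small number of arrays limits how precise each value is. The mean of 1204 rows for olfactory and vomeronasal receptors, few of which have a known place in fat, served as background. It split the arrays into 5 with a higher background (6.75 to 6.84; replicate 1 of WT_ND, WT_HFD and EKO_HFD, replicate 2 of EKO_ND and replicate 3 of EKO_HFD) and 9 with a lower one (6.29 to 6.56). Every group holds arrays of both kinds, so that counts are also given with this split as a term of the fit and within the 9 arrays. By their mean over the arrays, 11 of 11 white adipocyte markers lay above the highest background of 6.84, while 6 of 9 epididymis and testis markers lay at or below it.

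Complex I takes electrons from NADH and complex II takes them from succinate, both pass them through ubiquinone to complex III, cytochrome c carries them on to complex IV, and complex IV hands them to oxygen. The proton gradient built on the way drives ATP synthase. White fat holds fewer mitochondria than brown fat, and several complex IV subunits exist as a general isoform and a second one known from heart, skeletal muscle and brown fat, or from testis. Below, levels are log2 values with ± SD over arrays and differences are log2 differences with ± standard error. A gene is said to pass where limma's test gave it an adjusted p under 0.05 (Benjamini-Hochberg, over all 19937 genes).

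The 300 bases around the start of 4 members that the results turn on are printed here, as examples of windows with and without motifs that were searched for in all members and that the naming rule did not use. RefSeq's table for GRCm38.p6 held a window of 250 bases before to 50 after the start for 66 of the 81 members, 71 windows in all. Capitals mark the motifs searched for on both strands: GCATGCGC, the core that nuclear respiratory factor NRF1 binds, CCGGAAG, a core of ETS factors such as GABP, AAGATGGC, a core of YY1, and TATAAA, the TATA box.
Cox8b at chr7:140900397-140900696, minus strand: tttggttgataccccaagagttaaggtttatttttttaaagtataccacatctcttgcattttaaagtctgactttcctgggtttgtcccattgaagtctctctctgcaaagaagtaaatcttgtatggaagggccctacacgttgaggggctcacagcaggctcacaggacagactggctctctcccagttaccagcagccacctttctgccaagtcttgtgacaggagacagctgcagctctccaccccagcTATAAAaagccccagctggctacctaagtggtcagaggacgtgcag
Cox8a at chr19:7217567-7217866, minus strand: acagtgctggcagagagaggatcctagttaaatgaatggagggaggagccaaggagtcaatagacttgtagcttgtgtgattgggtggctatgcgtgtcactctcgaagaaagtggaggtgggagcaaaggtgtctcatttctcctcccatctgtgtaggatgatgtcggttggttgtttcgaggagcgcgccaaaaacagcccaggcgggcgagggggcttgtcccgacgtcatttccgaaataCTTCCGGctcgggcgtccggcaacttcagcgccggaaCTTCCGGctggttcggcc
Sdhb at chr4:140961021-140961320, plus strand: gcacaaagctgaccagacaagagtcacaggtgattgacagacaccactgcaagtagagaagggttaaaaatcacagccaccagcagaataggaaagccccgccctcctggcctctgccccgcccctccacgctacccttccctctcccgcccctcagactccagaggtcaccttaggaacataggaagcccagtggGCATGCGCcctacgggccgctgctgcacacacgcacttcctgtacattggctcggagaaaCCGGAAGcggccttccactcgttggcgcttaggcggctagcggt
Ndufa3 at chr7:3617123-3617422, plus strand: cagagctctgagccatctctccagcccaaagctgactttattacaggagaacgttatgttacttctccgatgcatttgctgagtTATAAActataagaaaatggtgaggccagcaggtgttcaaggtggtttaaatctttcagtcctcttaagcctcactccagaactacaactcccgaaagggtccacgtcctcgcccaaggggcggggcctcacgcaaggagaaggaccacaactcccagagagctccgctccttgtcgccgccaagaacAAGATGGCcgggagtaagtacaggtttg
Cox8b held none of the first 3 motifs, and its only match was TATAAA, which begins 4 bases after the listed start. A TATA box lies before the start it serves, so the listed start may not be the one used in fat, and the window and the position hold for the listed start only. Its general counterpart Cox8a had no TATA box and held an ETS-type motif on the opposite strand at 5 bases before and at 32 bases after its start. Sdhb held an NRF1-type motif 54 bases before and an ETS-type motif 6 bases after its start. Ndufa3 held a YY1-type motif 22 bases after its start and TATAAA letters 166 bases before it.

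Over the 71 windows of members, the NRF1-type motif stood in 10 (14.1%, against 2.71% of all 32851 windows of the table). The ETS-type motif stood in 17 (23.9% against 8.86%) and the YY1-type motif in 10 (14.1% against 2.75%). At least 1 of these motifs was found in 31 windows (43.7% against 13.3%), so that most windows of members held none of them. TATAAA stood in 9 windows (12.7%), close to its share of 13.6% in the whole table. The members with an NRF1-type motif were Atp5g2, Atp5k, Atp5l, Cox6a1, Ndufa11, Ndufa6, Ndufa8, Sdhb, Uqcr11 and Uqcrc1. These are matches of letters, not measured binding sites.

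Within a group the mean level of the members shifted from array to array, and many but not all members shared the shift. The mean level of the 81 members was 10.59, 10.97 and 10.67 in WT_ND, 10.47, 10.70 and 10.76 in WT_HFD, 10.69, 10.75, 10.86 and 10.70 in EKO_ND, and 10.55, 10.91, 10.77 and 10.80 in EKO_HFD. The groups overlapped, with means of 10.75 ± 0.20 (SD, n = 3), 10.64 ± 0.15 (n = 3), 10.75 ± 0.08 (n = 4) and 10.76 ± 0.15 (n = 4) in that order. The mean of all genes stayed between 8.38 and 8.44 over the same arrays.

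**Figure D1:**
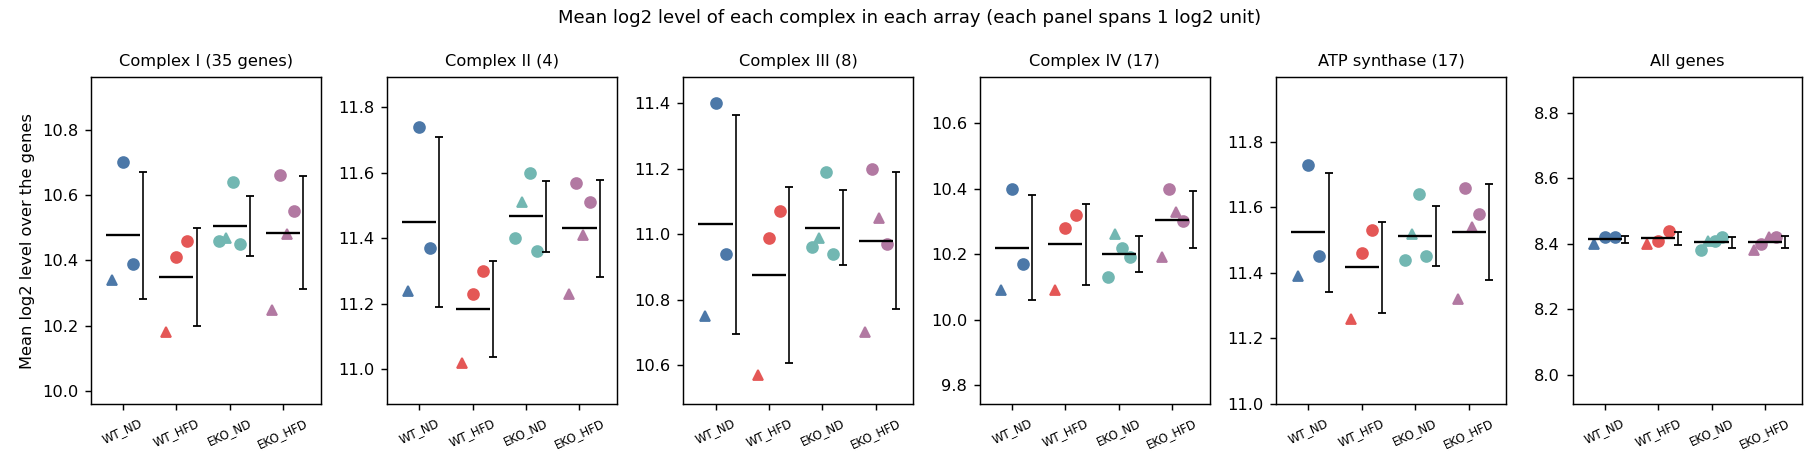
Mean log2 level of each complex and of all genes (vertical axis) in each of the 14 arrays, by group (horizontal axis). Each point is 1 array, triangles are arrays with higher background, horizontal bars are group means and vertical bars are ± SD; WT_ND replicate 2 is the highest array of its group in all 5 complexes, and the only groups that do not overlap are WT_HFD (11.02 to 11.30) and EKO_ND (11.36 to 11.60) for complex II.

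Single arrays stood out over most of the set. WT_ND replicate 2 was the highest array of its group for 63 of the 81 members (36.6% of all genes), EKO_ND replicate 3 for 55 (22.6%) and EKO_HFD replicate 2 for 58 (25.8%). WT_HFD replicate 1 was the lowest of its group for 64 members (44.7% of all genes) and EKO_HFD replicate 1 for 66 (35.2%). Both of these low arrays had a higher background. In the 5 arrays with higher background the member mean was 10.59 in WT_ND, 10.47 in WT_HFD, 10.75 in EKO_ND and 10.66 in EKO_HFD, and in the 9 others it was 10.82, 10.73, 10.75 and 10.86. The array spread of the set, 0.15 as the pooled SD within groups, is larger than any difference between the 4 group means, and the part of background in it was not tested.

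Single members differed widely in how much they varied. The range over the 14 arrays had a median of 0.67 over the 81 members and exceeded 1 for 14 of them. It was largest for Cox8b, at 1.91 (8.99 to 10.90), followed by Ndufb6, an accessory subunit of complex I, at 1.51 (10.77 to 12.28). The low end for Ndufb6 was 1 array, WT_ND replicate 3, against 11.60 or more elsewhere. The smallest ranges were 0.23 for Cox7b2, the testis isoform of subunit VIIb, which lay at 5.53 to 5.76 and so below background in every array, and 0.29 for Cox4i2. Cox7b2 was the only member at or below background in any group. A level above background does not by itself show expression. The testis markers Prm1 and Prm2 had group means of 7.62 to 7.83 and 7.99 to 8.14. The testis isoforms Cox6b2 (7.21 to 7.76) and Cox8c (7.91 to 8.37), and Ndufa4l2 (7.55 to 7.89), lay at similar levels over the arrays.

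In wild-type mice, no subunit gene passed the test for the Western against the normal diet (0 of 81, against 5.49% of all genes, 3.19% as higher and 2.3% as lower). At an unadjusted p under 0.05 limma counted 12 members, 3 higher and 9 lower (14.8%, against 16.9% of all genes). Values were lower on the Western diet for 62 members and higher for 19 (76.5% lower, against 55.8% of all genes), and the median difference was -0.11, against -0.02 for all genes. Without WT_ND replicate 2 that median was -0.01. The groups' arrays did not overlap for 2 members that were higher (8.77% of all genes) and 8 that were lower (11.3%).

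By complex, the wild-type diet difference was lowest in complexes II and III and nearest to 0 in complex IV. The median was -0.13 for complex I (31 of 35 members lower), -0.25 for complex II (4 of 4), -0.23 for complex III (6 of 8), -0.03 for complex IV (10 of 17) and -0.11 for complex V (11 of 17). With the background split as a term 3 members passed (10.1% of all genes), 1 higher and 2 lower. In the 9 arrays of lower background 4 passed (10.8%), 1 higher and 3 lower. Cox8b was the one higher, and Sdhb was among those lower, under both. With each array centred on its median 0 passed (4.11% of all genes) and the median difference was -0.055. Between 0 and 1 member passed when 1 array was left out, while the share of all genes ran from 2.08% without WT_HFD replicate 3 to 7.59% without WT_HFD replicate 1.

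Complex II, succinate dehydrogenase, belongs to both the citric acid cycle and the chain. Sdhb, its iron-sulfur subunit, read 10.64, 11.36 and 11.04 in WT_ND and 10.35, 10.67 and 10.55 in WT_HFD. The arrays overlapped slightly, with the highest Western array at 10.67 and the lowest normal one at 10.64, and the difference of -0.50 ± 0.16 had an adjusted p of 0.0934 in limma. It had an adjusted p of 0.0365 with the background split as a term and 0.0282 within the arrays of lower background, and Sdhb passed in 6 of 24 alternatives in all. Of the 14 fits that left out 1 array it passed in 1, without WT_ND replicate 1 (-0.68, adjusted p = 0.0166), and without WT_ND replicate 2 the difference was -0.32 with an adjusted p of 0.379. In EKO mice Sdhb read 10.94, 11.15, 11.15 and 10.78 on normal diet and 10.68, 10.93, 10.69 and 10.84 on the Western diet, a difference of -0.22 ± 0.14 (adjusted p = 0.946 in limma).

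Sdhc, a membrane anchor of complex II, read 11.44, 11.58 and 11.60 in WT_ND and 11.27, 11.38 and 11.27 in WT_HFD. Its groups did not overlap, and the difference was -0.23 ± 0.08 (adjusted p = 0.117 in limma). Sdha, the flavoprotein that oxidises succinate, differed by -0.27 ± 0.16 (adjusted p = 0.468) and Sdhd, the second anchor, by -0.07 ± 0.19 (adjusted p = 0.964). Sdhc was named after its values were seen.

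Of the core subunits of complex I in wild-type mice, Ndufs1, an iron-sulfur protein, differed by -0.23 ± 0.21, and Ndufv1, which binds NADH, by -0.22 ± 0.15. Ndufs8, an iron-sulfur protein near the ubiquinone site, differed by 0.01 ± 0.13. The difference for Uqcrc1, a core protein of complex III, was -0.25 ± 0.18, and that for Uqcrfs1, the Rieske iron-sulfur protein that passes electrons to cytochrome c1, was 0.08 ± 0.28. The catalytic subunits of ATP synthase gave -0.12 ± 0.14 for Atp5a1 (alpha) and -0.13 ± 0.08 for Atp5b (beta), its rotor subunit Atp5c1 (gamma) gave -0.31 ± 0.16, and its stalk subunit Atp5o gave -0.11 ± 0.18. None of these passed limma's test, with adjusted p values from 0.351 to 0.995.

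**Figure D2:**
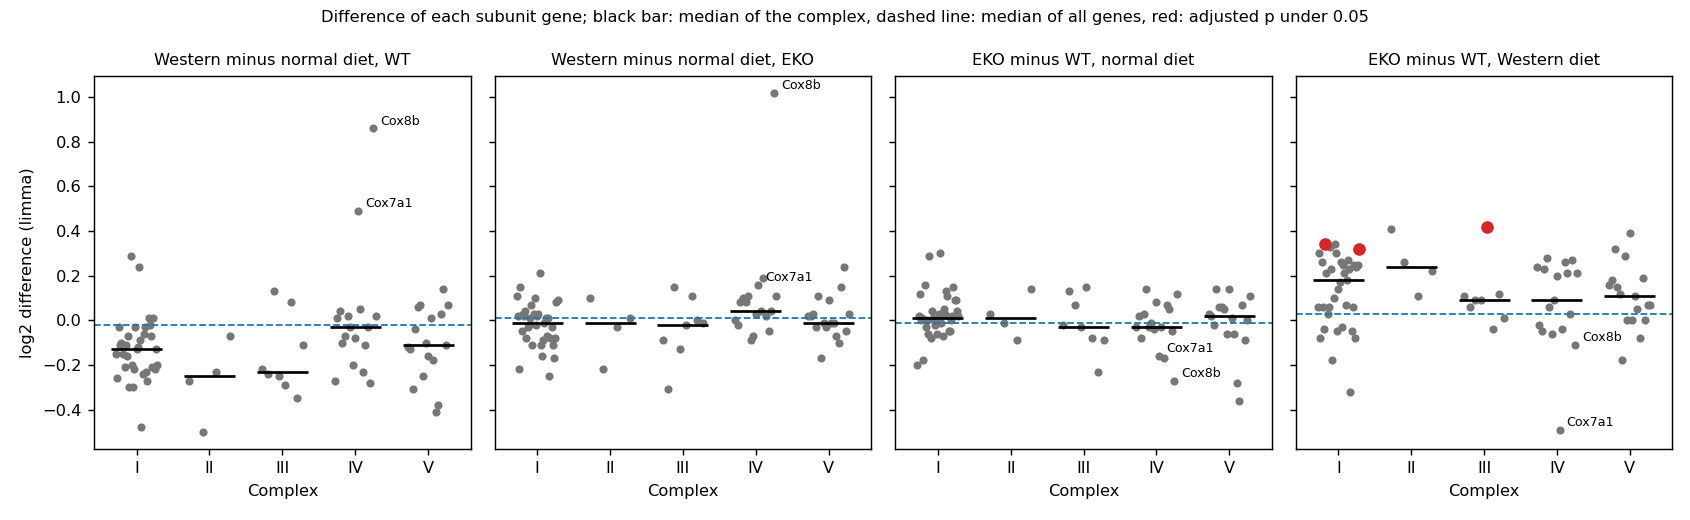
log2 difference of each of the 81 subunit genes (vertical axis) by complex (horizontal axis) in 4 comparisons. Grey points are genes that did not pass, red points are those with an adjusted p under 0.05 in limma, black bars are the median of a complex and the dashed line is the median of all genes; the 3 red points are Ndufa3, Ndufv3 and Uqcrc2 in EKO against WT on the Western diet, and Cox8b is the highest point in both diet comparisons, at 0.86 in WT and 1.02 in EKO.

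Cox8b, the isoform of complex IV subunit VIII known from heart, muscle and brown fat, had the largest diet difference of the 81 members in both genotypes. It read 9.17, 10.11 and 9.64 in WT_ND and 9.91, 10.90 and 10.70 in WT_HFD. It read 8.99, 9.66, 9.31 and 9.52 in EKO_ND and 10.03, 10.82, 10.40 and 10.32 in EKO_HFD. In EKO mice every array on the Western diet lay above every array on normal diet, while in wild-type mice the lowest Western array lay below the highest normal one.

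The diet difference of Cox8b was 0.86 ± 0.28 in WT (1.82-fold, adjusted p = 0.0918 in limma) and 1.02 ± 0.24 in EKO (2.03-fold, adjusted p = 0.524), and neither passed. The difference between these diet effects was 0.16 ± 0.37 (adjusted p = 0.923). With the background split as a term, the WT difference stayed at 0.86 with an adjusted p of 0.0364, and the EKO difference was 1.12 with an adjusted p of 0.176. The WT difference passed in 6 of 24 alternatives, with adjusted p values up to 0.322. Of the 14 fits that left out 1 array it passed in 1, without WT_HFD replicate 1, an array of higher background (1.16, adjusted p = 0.0144), and it was lowest without WT_ND replicate 1, at 0.63 (adjusted p = 0.276). The EKO difference passed in 1 of 24 alternatives and in 0 of these 14 fits. The mean of both diet effects, a contrast chosen after the levels of Cox8b were seen, was 0.94 ± 0.18 (1.92-fold, adjusted p = 0.0111 in limma). Cox8b was the 1 member of 81 that rose in that contrast, against 1.68% of all genes (1.77% fell and 3.45% passed in all), and its adjusted p lay between 4.42e-05 and 0.0406 over 23 alternatives. No member fell in it, the nearest being Sdhb at -0.36 (adjusted p = 0.0861).

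The general isoform Cox8a was lower by value on the Western diet in wild-type mice. It read 12.34, 12.56 and 12.46 in WT_ND and 12.25, 12.19 and 12.06 in WT_HFD, with no overlap and a difference of -0.28 ± 0.10 (adjusted p = 0.109 in limma). In EKO mice it differed by 0.04 ± 0.08 (adjusted p = 0.959) between the diets. Cox8a did not pass in either genotype.

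Cox7a1, the heart and muscle isoform of subunit VIIa that is also abundant in brown fat, read 8.21, 8.46 and 8.36 in WT_ND and 8.53, 9.10 and 8.86 in WT_HFD. The wild-type groups did not overlap, but the difference of 0.49 ± 0.20 did not pass (adjusted p = 0.196 in limma). In EKO_ND it read 7.94, 8.35, 7.93 and 8.49 and in EKO_HFD 7.99, 8.56, 8.64 and 8.16, which overlap widely, with a difference of 0.16 ± 0.17 (adjusted p = 0.946). Its general counterpart Cox7a2 differed by 0.05 ± 0.18 in WT and 0.04 ± 0.16 in EKO.

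The other isoforms gave smaller diet differences. Cox6a2, of heart and muscle, gave 0.02 ± 0.13 in WT and 0.11 ± 0.12 in EKO, and its general counterpart Cox6a1 gave -0.07 ± 0.20 and 0.08 ± 0.17. Cox4i2, an isoform known from lung and induced by low oxygen, gave 0.01 ± 0.09 and -0.02 ± 0.08, and Cox4i1 gave -0.27 ± 0.21 and 0.00 ± 0.18. The testis isoform Cox6b2 gave -0.20 ± 0.13 and -0.07 ± 0.11, and the general Cox6b1 gave -0.03 ± 0.19 and -0.09 ± 0.17. The testis isoform Cox8c gave 0.02 ± 0.11 and 0.11 ± 0.10, and Cox7b, the general form of subunit VIIb, gave -0.11 ± 0.10 and 0.02 ± 0.08. For Ndufa4l2, a relative of Ndufa4 induced by low oxygen, the values were -0.11 ± 0.09 and -0.08 ± 0.08, and for Ndufa4 they were -0.21 ± 0.27 and 0.04 ± 0.24. None passed in either genotype.

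**Figure D3:**
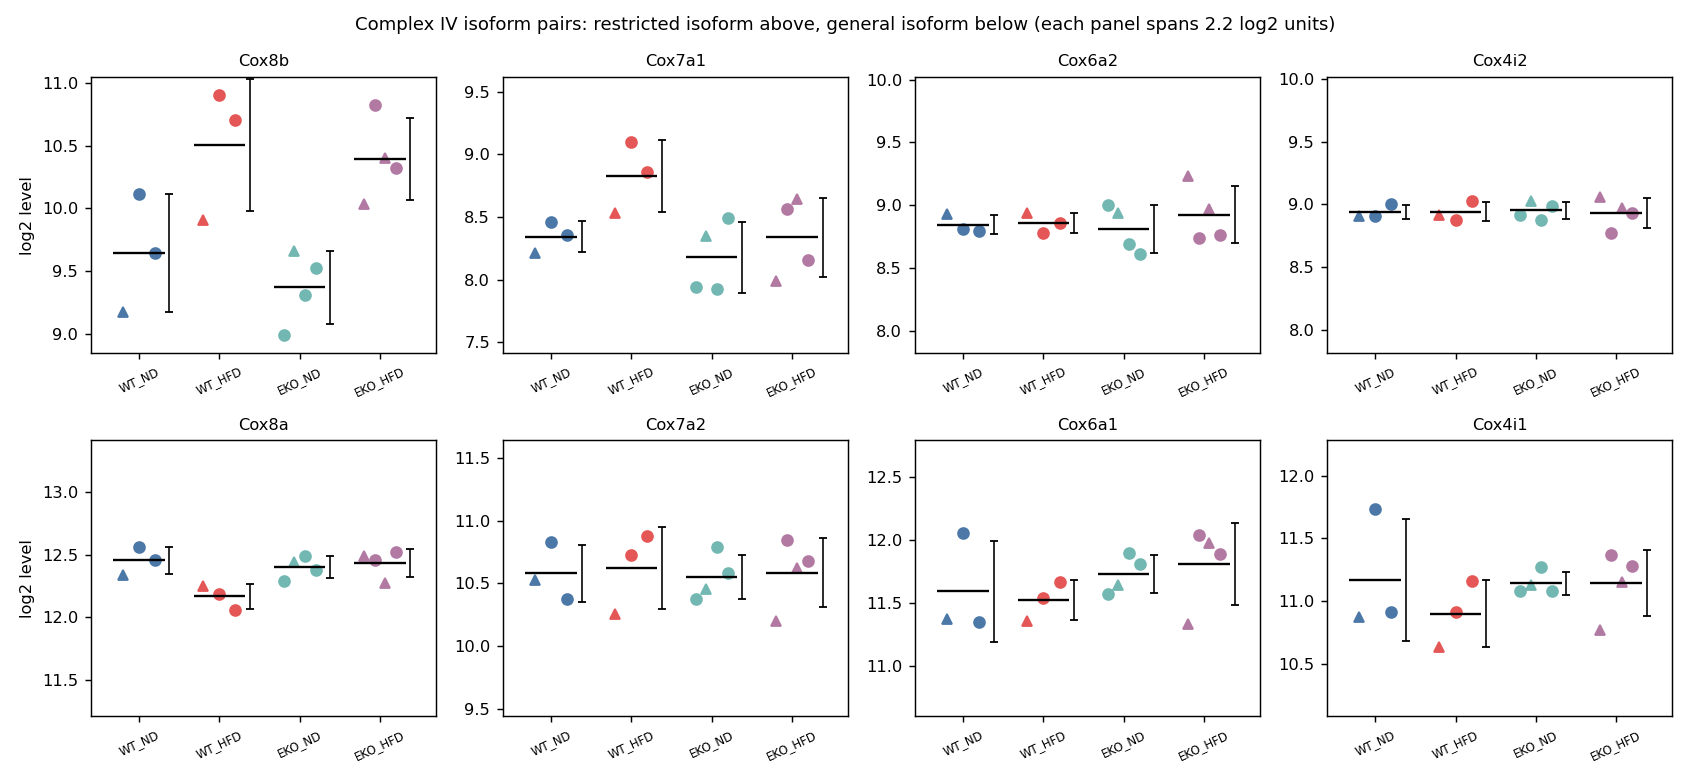
log2 level (vertical axis) of 4 isoform pairs of complex IV in each of the 14 arrays, by group (horizontal axis), with the tissue-restricted isoform in the upper row and the general one in the lower row. Points are arrays, triangles are arrays with higher background, horizontal bars are group means and vertical bars are ± SD; Cox8b is higher on the Western diet in both genotypes (group means 9.64 and 10.50 in WT, 9.37 and 10.39 in EKO), while Cox6a2 and Cox4i2 stay within 8.61 to 9.23.

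Of the 9 measured markers of brown and beige adipocytes, 0 passed limma's test for diet in either genotype (5.49% of all genes in WT and 0% in EKO). At an unadjusted p under 0.05 there were 2 in WT (16.9% of all genes) and 1 in EKO (4.43%). Those in WT differed in sign, with Elovl3 at 0.39 and Ppargc1a at -0.56, and the one in EKO was Kcnk3 at 0.25. The mean level of this list was 7.67 to 7.77 in WT_ND, 7.66 to 7.69 in WT_HFD, 7.61 to 7.75 in EKO_ND and 7.69 to 7.78 in EKO_HFD. Ucp1, the uncoupling protein that defines brown fat, had group means of 6.59, 6.67, 6.60 and 6.67 in that order, all below the highest background of 6.84. By their mean over the arrays Elovl3 and Zic1 lay there too, although the group mean of Elovl3 was 6.97 in WT_HFD. Of the 12 skeletal and cardiac muscle markers, 0 passed for diet in either genotype (1 at an unadjusted p under 0.05 in each). The myosins Myh1 and Myh4 and the myosin light chain Mylpf lay at or below background by their mean over the arrays. The other muscle markers lay above it. By group means, the muscle creatine kinase Ckm lay at 8.14 to 8.30, the actin Acta1 at 9.51 to 9.81 and the myosin light chain Myl1 at 10.17 to 10.53. The mean of the muscle list ran from 7.95 to 8.03 in WT_ND, 7.90 to 8.00 in WT_HFD, 7.87 to 8.14 in EKO_ND and 7.90 to 8.16 in EKO_HFD. In the mean of both diet effects 0 of 9 brown and beige markers passed (3.45% of all genes), and 2 had an unadjusted p under 0.05 (14.8%). These were Kcnk3 at 0.18 and Ppargc1a at -0.28. Of 12 muscle markers 1 passed, Actn3, which fell by 0.36 on the log2 scale (1.77% of all genes fell).

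In EKO mice no subunit gene passed for the Western against the normal diet (0 of 81; 0% of all genes passed). At an unadjusted p under 0.05 limma counted 1 member, Cox8b, and 4.43% of all genes. Values were higher for 42 members and lower for 39, and the median difference was 0.01, as it was for all genes. The medians of the complexes lay between -0.02 and 0.04. Arrays did not overlap for 1 member that was higher, Cox8b (0.973% of all genes), and 1 that was lower, Uqcr11, a small subunit of complex III, at -0.31 (1.59% of all genes). Uqcr11 was named after its values were seen.

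After Cox8b, the smallest p values for diet in EKO mice belonged to Ndufa11, a membrane-arm subunit of complex I, and Cox7a2l, counted with complex IV by its symbol. Ndufa11 read 10.75, 10.98, 10.96 and 11.13 in EKO_ND and 10.48, 10.85, 10.79 and 10.82 in EKO_HFD, which overlap, and differed by -0.22 ± 0.12 (adjusted p = 0.946 in limma). Cox7a2l read 9.12, 9.07, 9.28 and 9.27 in EKO_ND and 9.26, 9.49, 9.37 and 9.38 in EKO_HFD. Its lowest Western array lay below the highest normal ones, and the difference was 0.19 ± 0.10 (adjusted p = 0.946).

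Between the genotypes on normal diet no subunit gene passed (0 of 81, against 0.00502% of all genes, which is 1 gene). No member reached an unadjusted p under 0.05 in limma, against 1.13% of all genes. Values were higher in EKO for 46 members and lower for 35, with a median difference of 0.01, against -0.01 for all genes. Arrays did not overlap for 2 members that were higher in EKO, Ndufa3 and Atp5d (0.848% of all genes), and for 0 that were lower (0.868% of all genes). Without WT_ND replicate 2, the array highest for most members, the median difference was 0.125.

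Atp5d, the delta subunit in the central stalk of ATP synthase, had the smallest p between genotypes on normal diet. It read 13.27, 13.22 and 13.23 in WT_ND and 13.40, 13.39, 13.39 and 13.34 in EKO_ND, a difference of 0.14 ± 0.07 (adjusted p = 1.0 in limma). The arrays of the groups did not overlap, yet the difference did not pass. On the Western diet Atp5d read 13.11, 13.22 and 13.25 in WT and 13.43, 13.38, 13.27 and 13.31 in EKO, again without overlap, at 0.15 ± 0.07 (adjusted p = 0.254). Atp5l, subunit g of the membrane part, differed by -0.36 ± 0.18 on normal diet (adjusted p = 1.0), with WT_ND replicate 2 at 11.67 and the other arrays of both groups at 10.74 to 11.29.

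On the Western diet 3 of 81 subunit genes passed between the genotypes, all higher in EKO (1.64% of all genes passed as higher, 4.05% as lower and 5.69% in either direction). Values were higher in EKO for 63 members and lower for 18 (77.8% higher, against 57.6% of all genes), and the median difference was 0.12, against 0.03 for all genes. At an unadjusted p under 0.05 limma counted 20 members higher and 1 lower (25.9%, against 19.3% of all genes). The arrays of the groups did not overlap for 19 members, all of them higher in EKO (7.93% of all genes), and for 0 that were lower (8.71% of all genes). This comparison shares the WT_HFD arrays with the diet comparison in wild type.

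The median genotype difference on the Western diet was 0.18 for complex I (27 of 35 members higher), 0.24 for complex II (4 of 4), 0.09 for complex III (7 of 8), 0.09 for complex IV (11 of 17) and 0.11 for complex V (14 of 17). With the background split as a term 8 members passed, all higher in EKO (10.2% of all genes), and 4 passed in the 9 arrays of lower background (8.11%). With each array centred on its median 0 passed, against 4.89% of all genes, and the median difference was 0.046. The count of 3 rested on several arrays of the fit: it was 0 without WT_ND replicate 1 (5.23% of all genes passed), WT_HFD replicate 2 (2.16%) or 3 (1.58%), EKO_ND replicate 1 (5.0%), or EKO_HFD replicate 2 (3.89%) or 4 (3.27%). It was 1 without WT_ND replicate 2 or 3, EKO_ND replicate 3, or EKO_HFD replicate 1 or 3, where 3.65% to 5.67% of all genes passed, and 2 or 3 without each of the other 3 arrays, where 6.31% to 10.6% passed.

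Ndufv3, an accessory subunit of the NADH-oxidising end of complex I, read 9.46, 9.45 and 9.45 in WT_HFD and 9.82, 9.88, 9.54 and 9.85 in EKO_HFD. All EKO arrays lay above all WT arrays, and EKO replicate 3 was the closest. The difference was 0.32 ± 0.09 (1.25-fold, adjusted p = 0.0418 in limma), and the adjusted p lay between 8.53e-05 and 0.164 over 24 alternatives. Ndufv3 passed in 3 of the 14 fits that left out 1 array (without EKO_ND replicate 2 or 4 or EKO_HFD replicate 3). On normal diet Ndufv3 read 9.64, 9.60 and 9.72 in WT and 9.67, 9.63, 9.72 and 9.69 in EKO, which overlap, at 0.02 ± 0.09.

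Ndufa3, another small accessory subunit of complex I, read 10.73, 10.45 and 10.32 in WT_HFD and 10.87, 10.86, 10.76 and 10.86 in EKO_HFD. The groups did not overlap, but WT_HFD replicate 1, an array of higher background, was close to the lowest EKO array. The difference was 0.34 ± 0.09 (1.27-fold, adjusted p = 0.0465 in limma), and 0.25 with an adjusted p of 0.283 without WT_HFD replicate 3. Ndufa3 passed in 2 of the 14 fits that left out 1 array (without WT_HFD replicate 1 or EKO_ND replicate 2). On normal diet Ndufa3 read 10.72, 10.63 and 10.61 in WT and 10.78, 10.91, 10.80 and 10.76 in EKO, without overlap, at 0.16 ± 0.09 (adjusted p = 1.0).

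Uqcrc2, a core protein of complex III, read 12.12, 12.20 and 12.17 in WT_HFD and 12.40, 12.76, 12.58 and 12.59 in EKO_HFD. No array overlapped, and the difference was 0.42 ± 0.11 (1.34-fold, adjusted p = 0.043 in limma), with adjusted p values between 0.000496 and 0.164 over 24 alternatives. It passed in 6 of the 14 fits that left out 1 array, and not without WT_ND replicate 1, EKO_ND replicate 1, EKO_HFD replicate 2, 3 or 4, or any of the WT_HFD arrays. In WT_ND Uqcrc2 read 12.43, 12.65 and 12.30, all above the WT_HFD arrays, so that the wild-type diet difference was -0.29 ± 0.12 (adjusted p = 0.213). In EKO_ND it read 12.65, 12.64, 12.76 and 12.36, and the diet difference in EKO was -0.02 ± 0.10 (adjusted p = 0.983).

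**Figure D4:**
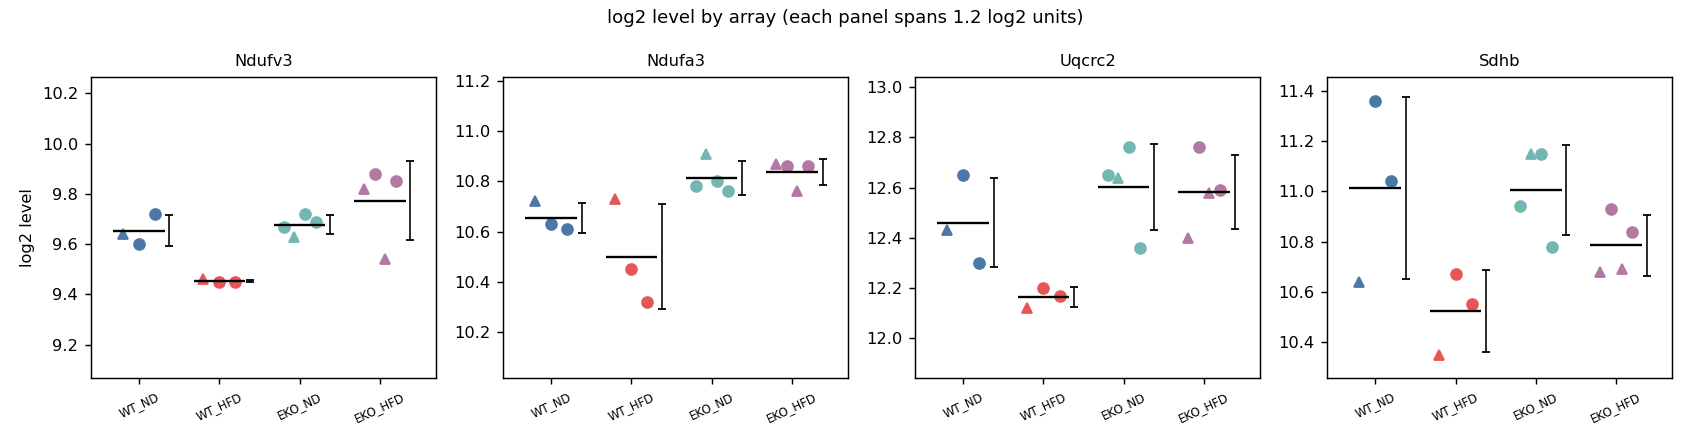
log2 level (vertical axis) of Ndufv3, Ndufa3, Uqcrc2 and Sdhb in each of the 14 arrays, by group (horizontal axis). Points are arrays, triangles are arrays with higher background, horizontal bars are group means and vertical bars are ± SD; the WT_HFD arrays lie below all EKO_HFD arrays for the 3 genes that passed (Uqcrc2: 12.12 to 12.20 against 12.40 to 12.76) and also for Sdhb (10.35 to 10.67 against 10.68 to 10.93), which did not pass.

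Other core subunits were also higher by value in EKO_HFD than in WT_HFD without passing. Sdha lay between 11.81 and 12.17 in the 3 WT_HFD arrays and read 12.18, 12.63, 12.34 and 12.47 in EKO_HFD, a difference of 0.41 ± 0.15 (adjusted p = 0.143 in limma) whose groups just missed each other. With the background split as a term it was 0.45 ± 0.12 (adjusted p = 0.0355), but it passed in only 2 of 24 alternatives and in 0 of the 14 fits that left out 1 array, with adjusted p values up to 0.324. Sdhb differed by 0.26 ± 0.15 (adjusted p = 0.36), again without overlap. For Atp5b the difference was 0.18 ± 0.08 (adjusted p = 0.223), for Atp5c1 0.32 ± 0.15 (adjusted p = 0.251), for Cox5b, which binds zinc in complex IV, 0.23 ± 0.10 (adjusted p = 0.227), and for Ndufs1 0.27 ± 0.19 (adjusted p = 0.488). Uqcrc1 and Uqcrfs1 gave 0.09 ± 0.17 and -0.04 ± 0.26, and Cox5a gave -0.05 ± 0.20.

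The isoforms differed in sign on the Western diet. Cox7a1 was the 1 member lower in EKO at an unadjusted p under 0.05, at -0.49 ± 0.18 (adjusted p = 0.144 in limma), with WT_HFD at 8.53 to 9.10 and EKO_HFD at 7.99 to 8.64. Cox8b differed by -0.11 ± 0.26 (adjusted p = 0.854) and Cox8a by 0.27 ± 0.09 (adjusted p = 0.102), the latter without overlap. The 3 genes for the c subunit of the ATP synthase rotor, which encode the same mature protein, gave -0.18 ± 0.10 for Atp5g1, 0.29 ± 0.10 for Atp5g2 and 0.00 ± 0.14 for Atp5g3, with adjusted p values of 0.38, 0.125 and 0.993. Among the 3, Atp5g2 alone had no overlap, at 11.94 to 12.13 in WT_HFD and 12.23 to 12.47 in EKO_HFD. These are the values of its kept probe set. Another set differed by 0.26, also without overlap (9.15 to 9.27 against 9.39 to 9.60). A further set differed by 0.05, with overlap (9.67 to 10.13 against 9.70 to 10.23). The other set of Atp5g1 gave -0.02. Whether the 3 genes differ from each other was not tested. The probe sets of a gene did not always share a sign: of 16 members with several sets, all sets agreed in sign for 12 here, 14 for diet in WT, 10 for diet in EKO and 8 for genotype on normal diet.

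For the difference between the diet effects, EKO minus WT, 0 of 81 members passed (0.482% of all genes), and limma counted 4 members, all higher, at an unadjusted p under 0.05 (10.8% of all genes). The median was 0.13, against 0.03 for all genes, with 65 of 81 values above 0 (80.2%, against 57.1% of all genes). Without WT_ND replicate 2 it was -0.01. The smallest p belonged to Cox7a2l, whose diet difference was -0.23 ± 0.12 in WT and 0.19 ± 0.10 in EKO. The difference of the 2 was 0.42 ± 0.16 (adjusted p = 0.312 in limma), and 0.48 ± 0.11 (adjusted p = 0.0487) with the background split as a term. It passed in 2 of 23 alternatives and in 0 of the 14 fits that left out 1 array, with adjusted p values up to 0.609. Cox8a followed at 0.32 ± 0.13 (adjusted p = 0.336) and Ndufv3 at 0.30 ± 0.12 (adjusted p = 0.366).

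Genes that build and feed the complexes were counted from 8 lists with 103 measured genes. For diet in WT 1 of the 103 passed, against 5.49% of all genes. Sdhaf3, an assembly factor of complex II, rose by 0.46 ± 0.12 (adjusted p = 0.0321 in limma), from 9.27, 9.18 and 9.20 in WT_ND to 9.36, 9.84 and 9.83 in WT_HFD. It was 1 of 10 in the list of complex II and III assembly factors, whose median was 0.08. The direction of Sdhaf3 was opposite to the values of the 4 subunits of complex II. For genotype on the Western diet 2 passed, against 5.69% of all genes. Suclg2, a subunit of the succinate-CoA ligase that makes succinate in the citric acid cycle, was at 9.52, 9.51 and 9.69 in WT_HFD and 9.96, 10.45, 10.08 and 10.31 in EKO_HFD, higher by 0.63 ± 0.15 (adjusted p = 0.0241). Coq10b, a ubiquinone-binding protein, was at 9.81, 9.94 and 10.11 in WT_HFD and 9.27, 9.59, 9.39 and 9.68 in EKO_HFD, a difference of -0.47 ± 0.13 (adjusted p = 0.0452). Neither pair of groups overlapped. None of the 103 passed for diet in EKO, genotype on normal diet or the difference between the diet effects (0%, 0.00502% and 0.482% of all genes).

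The other lists held few calls or none. Over all genes, 16.9% reached an unadjusted p under 0.05 for diet in WT and 19.3% for genotype on the Western diet. Of the 15 citric acid cycle genes 0 passed for diet in WT (4 at an unadjusted p under 0.05) with a median of -0.16, and 1, Suclg2, passed for genotype on the Western diet with a median of 0.18. The 17 genes of mitochondrial transcription and biogenesis had medians of -0.09 and 0.02 in the same comparisons and 0 passed in either (3 at an unadjusted p under 0.05 in each). Among them, Ppargc1a and Ppargc1b, coactivators of mitochondrial genes, had the smallest p for diet in WT, at -0.56 ± 0.20 (adjusted p = 0.133) and -0.39 ± 0.15 (adjusted p = 0.181). For genotype on the Western diet Ppargc1b gave 0.50 ± 0.14 (adjusted p = 0.0555). Of 15 assembly factors of complex IV and 14 of complex I, 0 passed in either comparison, with medians of 0.04 and -0.05 for complex IV and 0.00 and -0.01 for complex I (at an unadjusted p under 0.05, 1 and 2 for complex IV and 1 in each for complex I). The 4 genes of ATP synthase assembly and inhibition had medians of 0.09 and -0.20 and none passed (0 and 2 at an unadjusted p under 0.05). The 12 mitochondrial carriers had medians of 0.08 and -0.04 and none passed (0 and 1), and the 16 genes of electron carriers and ubiquinone synthesis had medians of -0.11 and 0.11 with Coq10b as their 1 call.

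Markers of other cell types moved with the same comparisons. Of 10 macrophage markers 5 rose for diet in WT (3.19% of all genes). On the Western diet 6 were lower in EKO than in WT (4.05%), and none passed for diet in EKO (0%). The mean level of the macrophage list was 9.53 to 9.80 in WT_ND, 10.43 to 10.95 in WT_HFD, 9.21 to 10.13 in EKO_ND and 9.55 to 10.07 in EKO_HFD, so that WT_HFD did not overlap the other groups. Itgax, an integrin of macrophages in obese fat, rose by 2.15 on the log2 scale for diet in WT and gave -2.02 for EKO against WT on the Western diet. Of 11 white adipocyte markers, Adipoq, Slc2a4 and Retn fell for diet in WT (2.3% of all genes). These 3 were higher in EKO on the Western diet (1.64%) while Lep was lower (4.05%). The adipocyte list had mean levels of 12.56 to 12.65, 12.45 to 12.55, 12.62 to 12.69 and 12.52 to 12.70 in the same order of groups.

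Of 6 mesothelial markers, which label the surface layer of the pad, 5 fell for diet in WT (2.3% of all genes). On the Western diet 1 was higher in EKO (1.64% of all genes). Their mean level was 10.32 to 10.79 in WT_ND, 9.32 to 9.47 in WT_HFD, 9.58 to 10.32 in EKO_ND and 9.81 to 10.16 in EKO_HFD. Of 6 lymphocyte markers 1 rose for diet in WT (3.19% of all genes). Of 6 fibroblast and progenitor markers 1 was lower in EKO on the Western diet (4.05%). Of 7 endothelial markers none passed in either comparison (0 and 3 at an unadjusted p under 0.05, against 16.9% and 19.3% of all genes). The part of cell makeup in the values of the subunit genes was not tested. In whole tissue, fewer cells of a type and less RNA per cell cannot be told apart.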

How the data were processed

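The authors deposited 1 table of log2 expression values for the probe sets of every array; per the submitters' processing notes RMA was the tool used. Version, settings and genome build were not given in the sources used here. Over all rows, the medians of the deposited values still differed between arrays, from 7.92 to 8.10, so that median centring and quantile normalization were tried as alternatives. As usually run, RMA evens out arrays at the level of probes, and a shift of most genes in 1 direction may then be reduced. Of 34760 rows, 21640 carried 1 gene symbol, 1321 several and 11799 none in the platform annotation. The probe set with the highest mean over the 14 arrays was kept for each of 19937 genes, and all 81 members matched RefSeq's gene table by Entrez ID with 0 changed symbols. Values ran from 4.21 to 14.5.

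One mean per group was fitted with limma 3.58.1 under R 4.3.3, using lmFit and eBayes with 10 residual degrees of freedom, and contrasts were tested two-sided at a Benjamini-Hochberg adjusted p under 0.05. The fit was tested on simulated data. Figures used matplotlib 3.10.9.

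The members and lists were chosen with earlier results of these data known. Genes named are those that passed, the 3 members with the smallest p where fewer than 3 passed, the isoforms and core subunits on a written list, and in the pathway lists those that passed or had the smallest p. The mean of both diet effects was added after the levels of Cox8b were seen. Each p-value sets a difference of group means against the spread between samples within groups, pooled over the groups of the fit and moderated by limma. Alternatives changed the normalization, variance model, filter, probe sets, covariates or samples.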

Additional observations from a re-analysis of the deposited data

Results flagged for a closer look

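Of 76 checks of the 38 named members in the groups of 4 arrays, 2 found 1 array far from the others by Dixon's criterion, and chance gives about 1 in 20. Ndufa11 was at 10.48 in EKO_HFD replicate 1, with the other 3 arrays at 10.79 to 10.85, and the gap was 0.853 of the range of the group against a critical value of 0.829. Ndufa3 was at 10.76 in EKO_HFD replicate 3, with the other 3 at 10.86 to 10.87, a gap of 0.886 of the range.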

How the results depend on the processing

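The number of members past the threshold for diet in WT was 0 in the main setting (5.49% of all genes) and 2 with the replicate block. It was 3 with the background block (10.1% of all genes) and 4 within the arrays of lower background (10.8%). Of the 81 members 5 passed after quantile normalization, against 1735 of 19937 genes, and 11 with array weights, against 5223. The count was 0 to 1 when single arrays were left out. It was 1 without WT_ND replicate 1 (5.26% of all genes) and 1 without WT_HFD replicate 1 (7.59%). For diet in EKO it was 1 with the replicate block, namely Cox8b, the 1 gene of 19937 that passed there, and 0 in every fit without 1 array. For genotype on the Western diet it was 8 with the background block (10.2% of all genes) and 0 after median centring (4.89%). Of the 81 members 9 passed after quantile normalization, against 1845 of 19937 genes. With array weights 37 passed (32 higher and 5 lower), against 6789 genes. The count was 1 with a trended and robust prior and 0 in a fit of only the groups compared. It was 0 to 3 when single arrays were left out (1.58% to 10.6% of all genes). For the difference between the diet effects it was 1 with the background block (320 of 19937 genes), 1 after quantile normalization (285) and 2 with array weights (2338). No count of all genes is given here for the replicate block in WT. The same holds for the trended prior and the fit of only the groups compared on the Western diet. Over all genes the calls for diet in WT were 1094 in the main setting, 2007 with the background block, 2152 within the arrays of lower background, 1735 after quantile normalization, 5223 with array weights and 479 from only the groups compared, and they ran from 415 to 1514 when single arrays were left out (528 and 527 without WT_ND replicates 2 and 3, 584 and 415 without WT_HFD replicates 2 and 3). For genotype on the Western diet they were 1134, against 2033, 1845 and 6789 with the background block, quantile normalization and array weights, and 316 to 2108 when single arrays were left out (2108, 430 and 316 without WT_HFD replicates 1, 2 and 3, and 727 and 652 without EKO_HFD replicates 1 and 4). For the difference they were 96, against 159, 320, 566, 285 and 2338 with the replicate block, the background block, the arrays of lower background, quantile normalization and array weights, and 37 (without WT_ND replicate 2) to 499 (without WT_HFD replicate 1) when single arrays were left out. For diet in EKO the replicate block gave 1 and array weights 8, and for genotype on normal diet 6 alternatives gave 2, against 0 and 1. When single arrays were left out, the calls ran from 0 to 4 for diet in EKO (4 without EKO_ND replicate 2). They ran from 1 to 3 for genotype on normal diet (3 without WT_ND replicate 1). The difference contrast could not be fitted from only the groups of 1 comparison. The causes were not tested.

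Whether the replicate numbers pair the samples could not be settled, because each comparison holds only 3 or 4 pairs. The deviations of same-numbered arrays correlated at 0.01 to 0.46 for diet in WT, -0.59 to 0.45 for diet in EKO, -0.11 to 0.21 for genotype on normal diet and -0.11 to 0.64 on the Western diet. In that order, 2 of 6, 1 of 8, 2 of 6 and 4 of 6 arrays correlated best with their own number. With the replicate block the adjusted p of Cox8b in limma was 0.00107 for diet in WT and 0.00286 in EKO, and that of Sdhb for diet in WT was 0.0275.

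The pooled SD of the member mean, 0.15, is larger than each median difference of the members and so does not measure their stability. Leaving out single arrays gave -0.186 to -0.012 for diet in WT, -0.047 to 0.062 in EKO, -0.069 to 0.125 for genotype on normal diet, 0.063 to 0.197 on the Western diet and -0.013 to 0.205 for the difference between the diet effects. Without WT_ND replicate 2 the median went from -0.113 to -0.012 for diet in WT and from 0.125 to -0.013 for the difference, and without WT_HFD replicate 1 these were -0.053 and 0.042. Of 4040 alternatives for named members, 3669 kept their direction and side of the threshold, 277 changed sign with both values within 1 standard error of 0 and did not pass, 44 passed newly, 42 no longer passed and 8 reversed. With array weights Cox4i2 for diet in WT was -0.07 and Cox5a for genotype on the Western diet was 0.13. Without WT_ND replicate 2, Cox4i1 was 0.02 for diet in WT, and for genotype on normal diet Cox4i1 was 0.25, Ndufa4 0.27, Atp5g3 0.13, Sdhb 0.16 and Atp5c1 0.16. Over all fits that left out 1 array, the lowest values were -0.42 for Cox4i1 in the diet comparison and -0.18, -0.22, -0.17, -0.20 and -0.13 for the genotype comparison in the same order. Cox7b2 lay below background, so that its differences carry no information on its level.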
